A study of Homo sapiens with 96 samples.

Results

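Type I interferon stimulated genes were described in 6 human cell lines of acute myeloid leukaemia given an inhibitor of lysine-specific demethylase 1 (LSD1), all-trans retinoic acid (ATRA) or both. The set held 45 genes, taken as the rows of the count table whose symbol was on a fixed list of interferon stimulated genes. All 45 symbols were found once among the 60552 gene rows.

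Each line received 1 µM GSK2879552 (an LSD1 inhibitor, labelled 552A), 100 nM ATRA, both agents at those doses (labelled Combo) or 0.1% DMSO as vehicle, for 2 or 4 days. The protocol leaves GSK2879552 alone as the meaning of 552A, since every other arm has its own label. The 6 lines were HL60, Kasumi1, MOLM13, MV411, OCIAML3 and THP1, each a single established line of myeloid leukaemia origin, so a result in a line describes that line. Every combination of line, treatment and day had 2 replicate libraries, 96 in all. Nothing in the labels ties a replicate to its own culture, so p-values within a line reflect the spread of these libraries alone, and that spread may be technical.

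Type I interferons are secreted proteins that cells make after their sensors meet viral or misplaced nucleic acid. They bind the receptor IFNAR, whose kinases JAK1 and TYK2 activate the transcription factor complex ISGF3. ISGF3 binds the interferon-stimulated response element (ISRE) in promoters, and the genes it turns on block viral entry, translation and replication. ATRA activates retinoic acid receptors and drives myeloid differentiation, and LSD1 is a chromatin enzyme that removes methyl groups from histones.

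The promoters of 6 members are shown because they carry the features and responses described below. MX1, IFI44L, IFITM3, IFIT5 and PARP14 hold the ISRE core in the form searched here. OAS1, which also responded, holds no match of that form in this window. Its sequence does hold GAAACGAAA, a closer spacing that the search did not count. Sequences are from RefSeq (GRCh38.p14), 250 bases before to 50 after the annotated start, written 5′ to 3′ in the direction of transcription. Capitals mark the ISRE core, which was searched on both strands as GAAA, any 2 bases and GAAA again, or TTTC, any 2 bases and TTTC on the other strand. MX1 has several annotated starts, and the first is shown.
MX1, chr21:41420308-41420607, plus strand: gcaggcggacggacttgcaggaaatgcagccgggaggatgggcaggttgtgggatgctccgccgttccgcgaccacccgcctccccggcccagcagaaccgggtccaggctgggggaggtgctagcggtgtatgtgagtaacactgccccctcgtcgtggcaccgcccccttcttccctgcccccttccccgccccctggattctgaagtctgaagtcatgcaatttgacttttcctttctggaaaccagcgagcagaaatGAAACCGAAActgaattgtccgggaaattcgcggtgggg
IFI44L, chr1:78620198-78620497, plus strand: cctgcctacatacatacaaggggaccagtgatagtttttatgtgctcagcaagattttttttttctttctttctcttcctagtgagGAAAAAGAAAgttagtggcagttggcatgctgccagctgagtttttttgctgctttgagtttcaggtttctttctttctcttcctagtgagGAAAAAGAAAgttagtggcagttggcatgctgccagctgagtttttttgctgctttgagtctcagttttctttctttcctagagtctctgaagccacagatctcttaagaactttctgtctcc
IFITM3, chr11:320811-321110, minus strand: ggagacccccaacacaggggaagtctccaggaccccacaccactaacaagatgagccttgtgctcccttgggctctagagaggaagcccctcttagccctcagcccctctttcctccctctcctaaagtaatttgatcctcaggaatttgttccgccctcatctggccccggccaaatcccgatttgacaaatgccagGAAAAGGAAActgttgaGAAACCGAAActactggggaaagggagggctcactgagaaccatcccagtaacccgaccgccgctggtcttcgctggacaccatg
IFIT5, chr10:89414318-89414617, plus strand: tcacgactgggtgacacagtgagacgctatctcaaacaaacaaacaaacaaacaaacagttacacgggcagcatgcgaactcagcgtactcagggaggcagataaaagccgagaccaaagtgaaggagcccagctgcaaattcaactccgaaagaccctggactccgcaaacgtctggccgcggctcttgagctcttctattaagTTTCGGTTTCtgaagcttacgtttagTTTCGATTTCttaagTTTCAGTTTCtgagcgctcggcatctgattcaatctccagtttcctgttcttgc
PARP14, chr3:122680589-122680888, plus strand: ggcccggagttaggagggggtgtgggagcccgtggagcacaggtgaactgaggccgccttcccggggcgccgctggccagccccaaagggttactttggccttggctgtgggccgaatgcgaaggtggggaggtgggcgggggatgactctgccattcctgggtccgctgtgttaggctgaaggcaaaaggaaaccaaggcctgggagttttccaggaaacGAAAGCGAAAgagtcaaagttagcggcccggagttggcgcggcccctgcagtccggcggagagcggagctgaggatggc
OAS1, chr12:112906712-112907011, plus strand: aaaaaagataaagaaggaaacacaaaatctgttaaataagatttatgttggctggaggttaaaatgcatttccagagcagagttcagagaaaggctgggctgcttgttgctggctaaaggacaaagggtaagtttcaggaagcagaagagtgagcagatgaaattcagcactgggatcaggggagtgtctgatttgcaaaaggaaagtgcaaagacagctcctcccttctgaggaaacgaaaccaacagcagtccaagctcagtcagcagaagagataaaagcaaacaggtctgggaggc

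The ISRE core stood in the promoter of 29 of the 36 members that had an entry, which is 80.6% (95% Wilson interval 65 to 90.2%), against 4.38% of 27305 genes. The shorter form GAAANNGAA, which contains every match of the core, was found in 30 of the 36 (83.3%), against 9.86% of genes. IFIT5 and IFI6 held the core 3 times each and IFI44L and IFITM3 2 times each, and PARP14 held it 1 time. In these 5 genes each match began before the annotated start, and the last of IFIT5 ran across it. In MX1 the core of the promoter shown lay after the start. The 7 members with an entry and no match of the searched core were OAS1, DDX58, HERC6, CMPK2, SAMD9L, IFI35 and XAF1. Among them OAS1, DDX58 and XAF1 hold GAAACGAAA on the strand written, a closer spacing that the search did not count. The retinoic acid response forms, GGTCA repeated with 5 or with 2 bases between, searched on both strands, were in 0 of the 36 (upper 95% limit 9.64%), against 0.106% and 0.146% of genes. IFIT2, OASL, DHX58, USP18, IFITM2, OAS2, TRIM22, MX2 and LY6E had no entry. A match is a description of the letters in this window, and no match says nothing of any factor.

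Libraries held 12.82 to 40.95 M counts (median 22.88 M). The myeloid genes CD33, SPI1, CEBPA and PTPRC were detected in all lines, and CD34 was found in Kasumi1 at 40.1 to 293 CPM (reads of a gene scaled to library size, with TMM factors over all libraries), against at most 0.696 CPM in the other lines. Of 8 markers of other cell types, MS4A1 stayed at or under 0.0727 CPM, while EPCAM was at 90.7 to 148 CPM in Kasumi1 and CD79A at 7.87 to 103 CPM in HL60. CD3D was at 6.81 to 29.4 CPM in MOLM13, and PECAM1 at 253 to 741 CPM in THP1. At day 4 the 8 markers summed to 81.9 and 61.8 CPM with ATRA and 48.5 and 37.6 CPM with Combo, against 208 and 206 CPM with DMSO in MV411. In OCIAML3 they summed to 74.3 and 81.5 CPM with ATRA and 211 and 206 CPM with Combo, against 20.1 and 28.1 CPM with DMSO. PECAM1, an adhesion molecule of endothelium that leukocytes also carry, made up nearly all of these sums, and without it the markers summed to 1.36 to 4.17 CPM in the day 4 libraries of these lines. Their part in the results was not tested. A pair of vehicle groups differed most between replicates. In MOLM13 at day 4, DMSO replicate 2 was over 2-fold above replicate 1 in 27 of the 45 genes, and in MV411 it was over 2-fold above in 21 and below in 5. The slope of the log2 level on gene GC content, relative to the mean of the line and per 10 percentage points of GC, was 0.149 in MV411 DMSO replicate 1 and -0.584 in replicate 2, and 0.0848 and 0.121 in the MOLM13 pair. Counts of genes that rest on these libraries are also given without replicate 2. Other groups differed in fewer genes, counted among members with at least 10 reads in a library of the pair. In MOLM13 552A at day 4, replicate 2 was over 2-fold above replicate 1 in 14 of 44. At day 2 it was over 2-fold below in 10 of 44 in MV411 ATRA, 8 of 40 in MV411 DMSO and 9 of 44 in OCIAML3 ATRA. IFITM1 and IFITM2, PARP9 and DTX3L, RSAD2 and CMPK2, and TRIM22 and TRIM5 overlap or adjoin in the genome, and IFITM1, IFITM2 and IFITM3, like DDX60 and DDX60L, are close paralogs. The strand setting and the treatment of shared reads are not given in the sources used here. Levels of these genes are therefore less certain.

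The vehicle cells differed in how much of these genes they expressed. Levels between genes were compared as CPM per kilobase of exon in DMSO at day 4. HL60 had the lowest level of the 6 lines in 29 of the 45 genes, with a median of 0.35 CPM per kilobase, and OCIAML3 the lowest in 10, with a median of 1.86. The medians of Kasumi1 (2.73), MV411 (2.43), MOLM13 (2.4) and THP1 (2.13) were close together. Vehicle levels differed between lines for 44 of the 45 genes (F test over the 6 lines in edgeR's quasi-likelihood fit, adjusted p under 0.05), where 78.1% of all genes tested did so. The exception was ISG15, the ubiquitin-like protein that is conjugated to other proteins (adjusted p = 0.537). Without DMSO replicate 2 of MOLM13 and MV411 the medians were 1.45 in MOLM13 and 1.39 in MV411, HL60 was lowest in 28 genes and OCIAML3 in 7, and 42 genes differed between lines, all but ISG15, IFI27 and ISG20, where 69.8% of all genes did so.

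BST2, or tetherin, which holds budding virions at the cell surface, had the highest median over the lines at 59.3 CPM per kilobase, between 10.4 in HL60 and 87 in OCIAML3. IFI6, a small protein of the endoplasmic reticulum and mitochondria, followed at 20.3 and IFITM2, a membrane protein that blocks virus entry, at 19.7. The lowest medians were those of IFI44L at 0.106, IFI27 at 0.0279 and the chemokine CXCL10 at 0.0261 CPM per kilobase. Single genes showed a line far from the rest. PARP14, an ADP-ribosyltransferase, was at 0.0157 CPM per kilobase in HL60 and at 6.49 to 13 in the other lines. TRIM22, a ubiquitin ligase with antiviral activity, was at 0.0328 in HL60 and 23.9 in MV411, and IFITM3, also an entry inhibitor, was at 0.18 in HL60 and 54.7 in Kasumi1. XAF1, a pro-apoptotic antagonist of XIAP, was at 0.00279 in HL60 and 9.59 in MOLM13 (8.69 in its DMSO replicate 1 alone). With replicate 1 alone in MOLM13 and MV411, BST2 and IFITM2 led the medians at 62.1 and 19.7 CPM per kilobase, IFI6 was at 8.02, and CXCL10, IFI27 and IFI44L (0.0645) were lowest again.

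**Figure D1:**
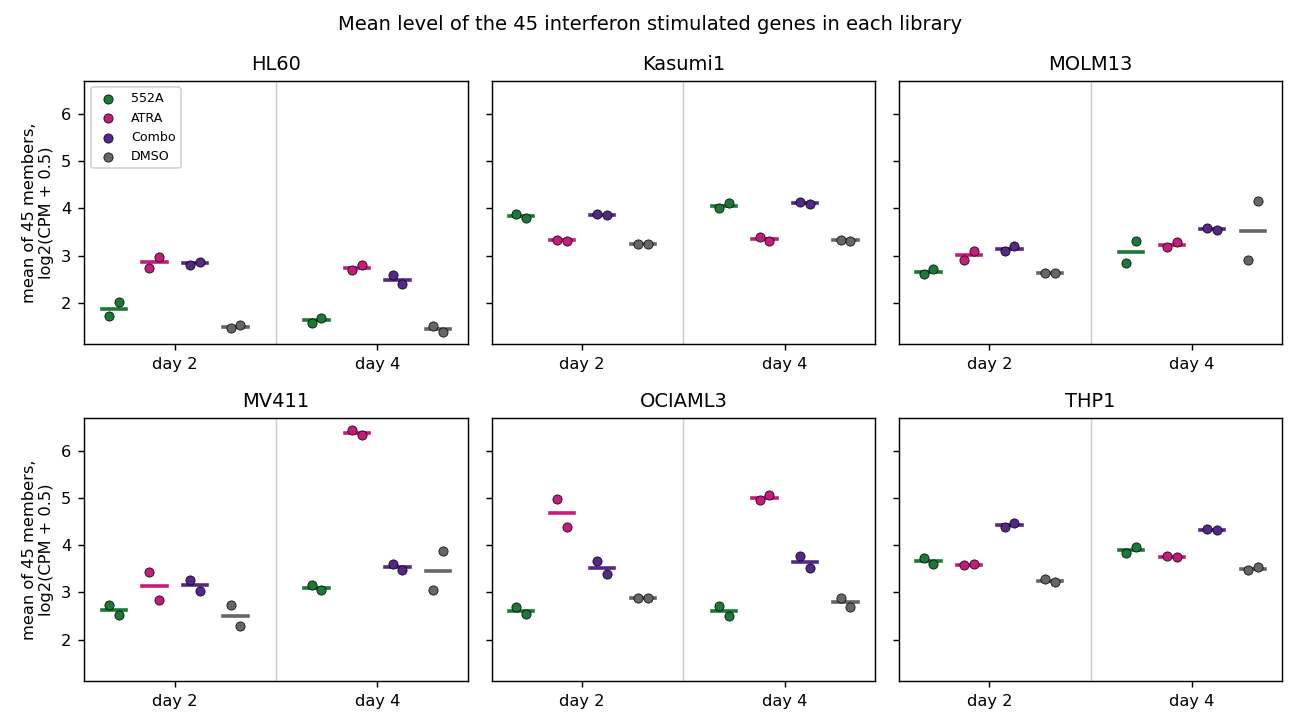
Mean level of the 45 genes, as log2(CPM + 0.5), in each library of each line at days 2 and 4; points are libraries, colours are treatments and bars are means of 2 replicates. At day 4 the ATRA libraries of MV411 stood at 6.44 and 6.32, against 3.05 and 3.87 in DMSO, and those of Kasumi1 at 3.40 and 3.32, against 3.34 and 3.31 in DMSO.

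ATRA at day 4 raised most of these genes in MV411 and OCIAML3, 21 of the 35 tested in HL60, some in THP1 and none past the test in Kasumi1. In MOLM13 6 were called lower and 3 higher. None of the 6 was called without DMSO replicate 2, with log2 changes from -1.94 to -0.65. The mean of log2(CPM + 0.5) over the 45 genes was 6.44 and 6.32 with ATRA, against 3.05 and 3.87 with DMSO, in MV411. It was 4.96 and 5.05 with ATRA, against 2.89 and 2.70 with DMSO, in OCIAML3, and 2.69 and 2.80 with ATRA, against 1.51 and 1.38 with DMSO, in HL60. In these 3 lines both ATRA libraries lay above both vehicle libraries. Kasumi1 gave 3.40 and 3.32 with ATRA, against 3.34 and 3.31 with DMSO. THP1 gave 3.76 and 3.75 with ATRA, against 3.47 and 3.53 with DMSO, and MOLM13 gave 3.19 and 3.28 with ATRA, against 2.90 and 4.15 with DMSO, where the ATRA libraries lay between the vehicle ones.

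Per gene, ATRA was tested against DMSO with edgeR's quasi-likelihood test in each line, with Benjamini-Hochberg adjustment over all genes tested in that line, and a gene under 0.05 counts as called. Folds are log2 with their standard error. In MV411 all 45 genes passed the filter on low counts and 41 were called higher and 0 lower, where 11.9% of all genes tested were called higher. In OCIAML3 44 were tested and 37 called higher, against 8.71% of all genes, and in HL60 35 were tested and 21 called higher, against 16.2%. In THP1 44 were tested, with 9 higher and 3 lower, against 8.85% and 5.38% of all genes. In MOLM13 45 were tested, with 3 higher and 6 lower, against 5% and 3.41%. In Kasumi1 42 were tested and 0 called, with 8 at an unadjusted p under 0.05 and 0 called by DESeq2, where 0.106% of all genes were called in either direction. The median log2 change over the genes tested was 2.64 in MV411, 1.92 in OCIAML3, 1.51 in HL60, 0.26 in THP1, 0.11 in Kasumi1 and -0.42 in MOLM13, and the median of all genes tested lay between -0.06 and 0.03 in each line. A member that passed the low-count filter only through its ATRA libraries had to differ, so these medians cover the genes tested and not all 45.

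**Figure D2:**
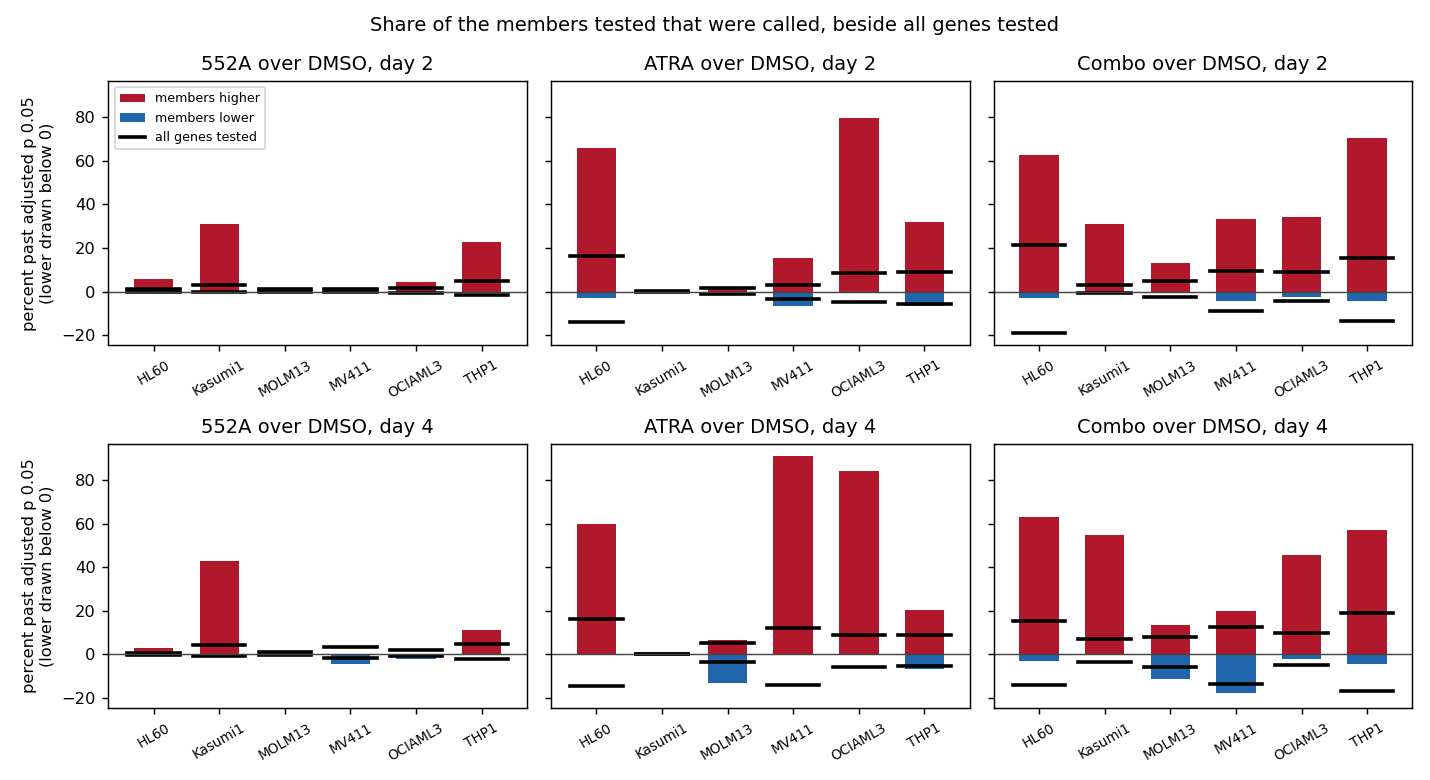
Percent of the members tested that were called higher (red, above 0) and lower (blue, below 0) in each treatment against DMSO, by line and day; black lines mark the percent of all genes tested. In ATRA at day 4 the bars of MV411 and OCIAML3 stand for 41 of 45 and 37 of 44 genes, above lines at 11.9% and 8.71%.

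In MV411 every role within the set had genes that rose. With all libraries the largest changes were those of IFITM3 and IFI27, and CXCL10 and OAS3 exceeded them in the fit without DMSO replicate 2. IFITM3, of the proteins that stop viruses at the membrane, was at 294 and 373 CPM with ATRA, against 5 and 1.55 CPM with DMSO (6.67 ± 0.64, adjusted p = 1.09e-05). IFI27, a mitochondrial protein, was at 23.5 and 21.7 CPM with ATRA, against 0.325 and 0.416 CPM with DMSO (5.90 ± 0.52, adjusted p = 1.04e-05). IFITM1 was at 893 and 1173 CPM with ATRA, against 48.8 and 21.2 CPM with DMSO (4.88 ± 0.54). For both IFITM genes the ATRA libraries were far above every other library of that line and day except those of Combo. All 4 of the OAS family rose. The products of OAS1, OAS2 and OAS3 activate RNase L when double-stranded RNA is present. OAS2 was at 147 and 132 CPM with ATRA, against 8.73 and 26 CPM with DMSO (3.01 ± 0.40, adjusted p = 0.00015).

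The IFIT proteins bind foreign 5′ ends of RNA and block its translation, and 3 of the 4 were called in MV411. IFIT3 was at 135 and 102 CPM with ATRA, against 3.29 and 16.1 CPM with DMSO (3.61 ± 0.96, adjusted p = 0.0146), and its call was lost in the fits without ATRA replicate 1 or DMSO replicate 1 (adjusted p at most 0.0523). MX1, a dynamin-like GTPase that traps viral nucleocapsids, was at 132 and 127 CPM with ATRA, against 4.23 and 18.1 CPM with DMSO (3.53 ± 0.68, adjusted p = 0.00215). USP18, the protease that removes ISG15 and also restrains signalling at IFNAR, was at 35.8 and 27.2 CPM with ATRA, against 3.49 and 4.05 CPM with DMSO (3.06 ± 0.25, adjusted p = 3.24e-06). In each of these genes both ATRA libraries lay above both vehicle libraries, as they did for 44 of the 45 genes in MV411.

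ISG15 was called higher in MV411 with ATRA, at 87.4 and 116 CPM against 9.06 and 2.99 CPM with DMSO (4.08 ± 0.81, adjusted p = 0.00259), and in no other line or treatment against DMSO at day 4. Its GC content of 63.4% is high, and its replicates were often far apart. In OCIAML3 it was at 19.5 and 8.61 CPM with ATRA, against 4.84 and 2.65 CPM with DMSO (adjusted p = 0.308), and a fit with offsets for GC content and length called it (log2 change 2.33, adjusted p = 0.00834). The part of GC content in the result was not tested otherwise. The 6 RNA sensors and effectors, DDX58 (RIG-I), IFIH1 (MDA5), DHX58, DDX60, DDX60L and EIF2AK2 (PKR), were all called higher in MV411. The 4 genes not called in MV411 were IFI44, IFI44L, IFIT2 and TRIM22. IFI44L was at 38.6 and 31.3 CPM with ATRA, against 1.02 and 12.9 CPM with DMSO (2.32, adjusted p = 0.0583), so that the vehicle replicates were far apart. Without DMSO replicate 2, 42 genes were called higher and the median was 3.61, against 7.29% of all genes, and without replicate 1, 38 were called higher.

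In OCIAML3 the OAS family had 4 of 4 genes called, with a median of 3.63. MX1 was at 61 and 81.7 CPM with ATRA, against 3.5 and 2.5 CPM with DMSO (4.55 ± 0.45, adjusted p = 6.44e-05). IFI6 was at 103 and 97.7 CPM with ATRA, against 5 and 5.89 CPM with DMSO (4.19 ± 0.30, adjusted p = 8.65e-06). RSAD2 (viperin), which makes a chain-terminating nucleotide, was at 25 and 25.6 CPM with ATRA, against 2.71 and 2.69 CPM with DMSO (3.21 ± 0.45, adjusted p = 0.000669). In these 3 genes the replicates of each group lay close together and the groups were far apart. Several genes came from almost nothing: IFI44L was at 28.5 and 49.1 CPM with ATRA, against 0.294 and 0.0736 CPM with DMSO, which is 9 and 2 reads, and it was called higher. EPSTI1 was at 3.08 and 4.64 CPM with ATRA, against 0 and 0.0368 CPM with DMSO, and was called higher. EPSTI1, IFI27, IFI44, IFI44L and IFITM1 had under 10 reads in every vehicle library of OCIAML3 and passed the low-count filter through treated libraries, so their calls follow in part from the filter. Of the other 39 members tested 32 were called higher. The members not called were BST2, IFI35, IFITM2, IFITM3, ISG15, LY6E and USP18. IFITM3 was at 46.6 and 35.2 CPM with ATRA, against 13.3 and 10.9 CPM with DMSO in OCIAML3.

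In HL60 the 10 genes not tested were OAS2, OASL, HERC5, IFI44L, IFI44, IFI27, RTP4, XAF1, EPSTI1 and CXCL10, with at most 16 reads in any of the 16 libraries of the line. IFIT5, OAS1, OAS3, PARP14 and TRIM22 likewise had under 10 reads in every vehicle library of HL60, and 4 of these 5 were called with ATRA, against 17 of the other 30. Of the 6 RNA sensors 5 were called higher, and so were both OAS genes tested, OAS1 and OAS3. DDX60, an RNA helicase, was at 22 and 34.8 CPM with ATRA, against 1.11 and 1.32 CPM with DMSO (log2 change 4.51). TRIM22 was at 14.9 and 29 CPM with ATRA, against 0.259 and 0.137 CPM with DMSO (6.69 ± 0.47, adjusted p = 1.04e-06), where the vehicle libraries held 7 and 3 reads. IFIT5, the IFIT protein that also binds host tRNA, was at 5.01 and 11.7 CPM with ATRA, against 0.111 and 0.228 CPM with DMSO (5.58 ± 0.61, adjusted p = 3.19e-05), from 3 and 5 vehicle reads. MX2, which acts against retroviruses, was at 21.1 and 24.1 CPM with ATRA, against 1.74 and 1.78 CPM with DMSO (log2 change 3.65). Its relative MX1 was at 0.696 and 0.598 CPM with ATRA, against 0.554 and 0.41 CPM with DMSO in HL60, which was not past the test (0.39 ± 0.52, adjusted p = 0.601). The 2 HL60 ATRA libraries differed in GC slope, at 0.378 and -0.52, and ATRA replicate 2 was the higher in TRIM22 and IFIT5.

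THP1 changed less. Of 44 genes 9 were called higher and 3 lower, against 8.85% and 5.38% of all genes tested. The 3 lower are not far from that share, so nothing is read from their number. IFI6 was at 67 and 69.9 CPM with ATRA, against 17.7 and 18 CPM with DMSO (1.89 ± 0.15), the largest rise of that line and treatment. IFIT3 was at 10.4 and 12.6 CPM with ATRA, against 4.51 and 5.35 CPM with DMSO (1.18 ± 0.24, adjusted p = 0.00583), and its call was lost without DMSO replicate 1 (adjusted p = 0.0616). USP18 fell to 0.451 and 0.478 CPM with ATRA, against 2.43 and 2.76 CPM with DMSO (-2.51 ± 0.41, adjusted p = 0.00129). XAF1 was at 3.88 and 4.34 CPM with ATRA, against 7.44 and 8.88 CPM with DMSO (-1.03), and TRIM22 was at 3.06 and 3.97 CPM with ATRA, against 6.07 and 5.88 CPM with DMSO (-0.81 ± 0.23, adjusted p = 0.0332). The calls of XAF1 and TRIM22 were lost in 2 and 12 of the 16 fits that left out 1 library. The count of 12 called genes was 5 without ATRA replicate 2 and 4 without DMSO replicate 1. Of the 12 calls 3 were kept in every fit that left out 1 library.

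In MOLM13 the calls changed with single libraries, both vehicle and treated. IFI44, a protein of the interferon response with a GTP-binding motif, was at 0.175 and 0.29 CPM with ATRA, against 0.904 and 6.5 CPM with DMSO (-3.99 ± 0.97, adjusted p = 0.0229). OASL, which enhances RIG-I signalling, was at 0.305 and 0.772 CPM with ATRA, against 1.81 and 8.63 CPM with DMSO (-3.29, adjusted p = 0.0184). For both genes DMSO replicate 2 was the highest of all values. HERC5, the ligase that attaches ISG15, fell by 2.37 on the log2 scale, ISG20, an exonuclease, by 2.47, IFI44L by 3.45 and XAF1 by 0.81. The genes called higher were BST2 (1.31 ± 0.38, adjusted p = 0.0488), RTP4, a chaperone of receptors (1.08 ± 0.22, adjusted p = 0.00835), and PARP14 (0.76 ± 0.19, adjusted p = 0.0232). PARP14 was at 243 and 193 CPM with ATRA, against 113 and 141 CPM with DMSO. None of the 9 calls was kept in all 16 fits that left out 1 library. Without DMSO replicate 2, 1 gene was called higher (CMPK2) and 0 lower, the median was 0.41, against 1.74% and 1.22% of all genes. In the fit that left out DMSO replicate 1, 1 was called higher and 12 lower, with a median of -0.89. The count was 0 without ATRA replicate 1, 2 without ATRA replicate 2 and 4 without either Combo replicate. With offsets for GC content and length, 7 were called higher and 10 lower. The share of all genes called with these offsets is not given here, so nothing is read from the larger count.

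**Figure D3:**
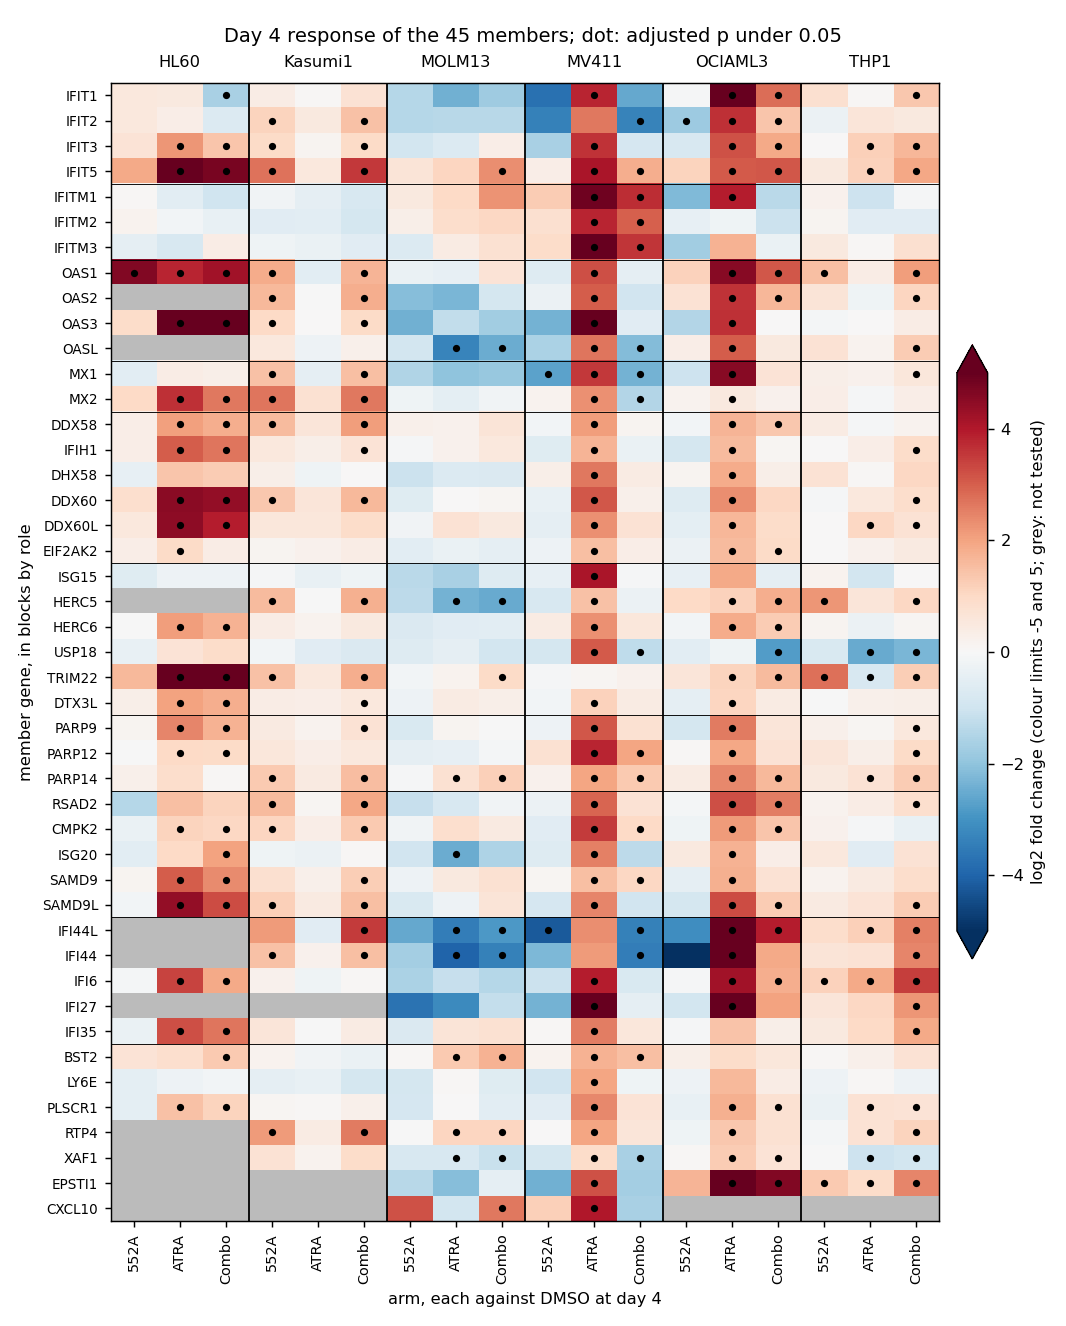
Log2 fold change of each of the 45 genes (rows, in blocks by role) in each treatment over DMSO at day 4, for the 6 lines (columns); dots mark an adjusted p under 0.05, grey marks genes not tested and colours stop at -5 and 5. MV411 has 41 dots in its ATRA column, and the ATRA column of Kasumi1 has 0.

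The ATRA response differed between lines for all 45 genes (F test of line by treatment on the 48 day-4 libraries, adjusted p under 0.05), where 31.4% of all genes did so. With 1 line left out in turn, 38 to 44 of the genes differed between the remaining lines, and 41 did without DMSO replicate 2 of MOLM13 and MV411. The genes called higher made up 91.1% of those tested in MV411 and 84.1% in OCIAML3, so large overlaps with these lines follow from the shares alone and nothing is read from them. MV411 and OCIAML3 shared 33 genes called higher, which is 80.5% of the 41 in MV411 and 89.2% of the 37 in OCIAML3. HL60 shared 20 with MV411 (95.2% of its 21, and 48.8% of the 41) and 20 with OCIAML3 (95.2%, and 54.1% of the 37). All 9 genes that rose in THP1 also rose in OCIAML3, where they were 24.3% of the 37. In HL60, MV411 and OCIAML3 alike 19 genes rose, among them DDX58, IFIH1, IFIT3, IFIT5, OAS1, OAS3, IFI6 and PLSCR1. IFIT3, IFIT5, DDX60L, PARP14, IFI6, PLSCR1 and RTP4 were called higher in 4 lines each. In HL60, IFIT5, OAS1, OAS3 and TRIM22 passed the low-count filter through treated libraries. So did EPSTI1, IFI27, IFI44, IFI44L and IFITM1 in OCIAML3. Their calls in those lines, and the sharing that rests on them, follow in part from the filter. PLSCR1, a phospholipid scramblase of the plasma membrane, was at 58.5 and 65.7 CPM with ATRA, against 22.7 and 21.8 CPM with DMSO in HL60 (1.45 ± 0.18, adjusted p = 9.56e-05), and at 171 and 139 CPM, against 20.6 and 37.1 CPM, in MV411 (log2 change 2.42). OASL, HERC5, TRIM22, ISG20, IFI44L, IFI44, USP18 and XAF1 were called in opposite directions in different lines, and of their calls in MOLM13 and THP1 the fall of USP18 in THP1 was kept in every fit that left out 1 library. Over the lines as replicates, with each replicate pair summed and line as a block, ATRA raised 13 of the 45 genes, against 4.17% of all genes called higher. They were IFI35, DDX58, IFIH1, CMPK2, DDX60, PARP9, IFIT5, DTX3L, PARP14, SAMD9L, DDX60L, PLSCR1 and SAMD9. DESeq2 called 24. The count was 0 without OCIAML3, 2 without MV411, 3 without HL60, 5 without THP1, 9 without MOLM13 and 17 without Kasumi1, and it was 25 without DMSO replicate 2 of MOLM13 and MV411.

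The LSD1 inhibitor alone raised these genes in Kasumi1 and, in smaller number, in THP1. At day 4, 18 of the 42 genes tested in Kasumi1 were called higher and 0 lower, with a median log2 change of 0.65, against 4.28% of all genes called higher. THP1 had 5 higher (median 0.28, against 4.73% of all genes) and HL60 had 1, OAS1 (median 0.15, against 0.781%). MOLM13 had 0 called (median -0.73, 15 at an unadjusted p under 0.05, DESeq2 3, against 1.59% of all genes in either direction), MV411 had 2 lower (median -0.40, against 1.7%) and OCIAML3 had 1 lower (median -0.22, against 0.803%). The median of all genes lay between -0.03 and 0.00 in these fits.

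In Kasumi1, IFIT5 was at 10 and 10.1 CPM with 552A, against 1.61 and 1.36 CPM with DMSO (2.71 ± 0.31, adjusted p = 0.000215). MX2 was at 3.01 and 3.89 CPM with 552A, against 0.354 and 0.707 CPM with DMSO (2.68 ± 0.32, adjusted p = 0.000292). DDX58, the cytosolic sensor of uncapped RNA, was at 30.5 and 32 CPM with 552A, against 10.8 and 9.29 CPM with DMSO (1.59 ± 0.22, adjusted p = 0.000883). Replicates lay close together for IFIT5 and DDX58, and the vehicle pair of MX2 lay further apart. OAS1 was at 9.37 and 13.5 CPM with 552A, against 3.03 and 3.13 CPM with DMSO (1.85 ± 0.23, adjusted p = 0.000455). RSAD2 was at 26.1 and 26.4 CPM with 552A, against 8.78 and 8.43 CPM with DMSO (1.57 ± 0.22, adjusted p = 0.000883). PARP14 was at 264 and 259 CPM with 552A, against 101 and 105 CPM with DMSO (1.30 ± 0.14, adjusted p = 0.000155). The other calls were MX1, OAS2, OAS3, IFIT2, IFIT3, IFI44, HERC5, TRIM22, DDX60, CMPK2, SAMD9L and RTP4, between 0.94 and 2.11. In all, 11 of the 18 were kept in each of the 16 fits that left out 1 library, and 11 genes were called without DMSO replicate 2. The IFITM proteins and ISG15 were not called in Kasumi1.

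In THP1 5 genes were called with 552A, and 3 of them, HERC5, OAS1 and TRIM22, were also called in Kasumi1. TRIM22 was at 37.9 and 43.6 CPM with 552A, against 6.07 and 5.88 CPM with DMSO (2.75 ± 0.23, adjusted p = 2.01e-05), where ATRA had the opposite direction. HERC5 was at 55.1 and 61.2 CPM with 552A, against 11.6 and 13.2 CPM with DMSO (2.21 ± 0.25, adjusted p = 0.000203). OAS1 was at 23.1 and 22.5 CPM with 552A, against 8.55 and 7.41 CPM with DMSO (1.50 ± 0.17, adjusted p = 0.000182). In each, the 552A pair was well above the vehicle pair. IFI6 rose by 1.15 ± 0.15 (adjusted p = 0.000571), and EPSTI1 was at 6.98 and 6.98 CPM with 552A, against 2.43 and 3.17 CPM with DMSO, its call lost without DMSO replicate 1 (adjusted p = 0.0756).

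In HL60, OAS1 was at 10.7 and 7.29 CPM with 552A, against 0.295 and 0.41 CPM with DMSO (4.63 ± 0.40, adjusted p = 8.44e-05), from 8 and 9 vehicle reads. It is 1 of the 5 genes that passed the low-count filter in HL60 through treated libraries. In that line it was the one member called with 552A, and its level with 552A was above that with ATRA, at 4.49 and 5.63 CPM. The falls in MV411, IFI44L and MX1, rested on DMSO replicate 2: MX1 was at 2.01 and 1.65 CPM with 552A, against 4.23 and 18.1 CPM with DMSO (adjusted p = 0.0477), and without that library 0 genes were called and the median was 0.14. Without DMSO replicate 1, 7 were called lower. IFIT2 in OCIAML3 was at 0.487 and 0.466 CPM with 552A, against 1.73 and 1.62 CPM with DMSO (-1.80 ± 0.43, adjusted p = 0.0493), a call lost in 14 of the 16 fits that left out 1 library, which called 0 to 6 genes. In MOLM13 leaving out 1 library gave 0 to 3 called genes, with a median of 0.13 without DMSO replicate 2. The 552A response differed between lines for 16 of the 45 genes, against 5.69% of all genes, for 4 without Kasumi1, 9 without THP1 and 15 without DMSO replicate 2 of MOLM13 and MV411. Over the 6 lines as replicates 552A changed 0 genes, with 1 at an unadjusted p under 0.05 and 0 called by DESeq2, against 0.393% of all genes.

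With both agents at day 4, the genes rose in Kasumi1, THP1, HL60 and OCIAML3, and in MV411 and MOLM13 nearly as many fell as rose. Kasumi1 had 23 higher and 0 lower (median 0.92, against 6.9% of all genes higher). THP1 had 25 higher and 2 lower (median 0.85, against 18.8% and 16.8%), HL60 had 22 higher and 1 lower (median 1.40, against 15.2% and 14.3%) and OCIAML3 had 20 higher and 1 lower (median 0.85, against 9.98% and 5.14%). Members with under 10 reads in every vehicle library of a line passed the filter through treated libraries. Without them 24 of 43 were called higher in THP1, 18 of 30 in HL60 and 18 of 39 in OCIAML3. MV411 had 9 higher and 8 lower (median -0.07, against 12.7% and 13.6%) and MOLM13 had 6 higher and 5 lower (median -0.17, against 8.11% and 5.93%). Counts moved over 1.5 times in single fits that left out 1 library: OCIAML3 had 12 called without DMSO replicate 1 and 11 without replicate 2, MV411 had 10 without Combo replicate 2, and MOLM13 had 6 and 5 without Combo replicates 1 and 2. Without DMSO replicate 2, MV411 had 14 higher and 3 lower (XAF1, MX2 and USP18), with a median of 0.50, against 11.1% and 11.9% of all genes. Without DMSO replicate 2, MOLM13 had 11 higher and 1 lower, with a median of 0.62, against 4.18% and 2.97%, and without replicate 1 it had 4 higher and 11 lower. With offsets for GC content and length, MV411 had 14 higher and 12 lower with a median of 0.14, so the sign of its median depends on this choice, and MOLM13 had 11 higher and 7 lower.

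IFIT5 was the one gene called higher with Combo in all 6 lines at day 4. It was at 22.3 and 13 CPM with Combo, against 1.61 and 1.36 CPM with DMSO in Kasumi1 (3.52 ± 0.31, adjusted p = 2.59e-05). It was at 11.1 and 12.3 CPM with Combo, against 1.86 and 2.74 CPM with DMSO in MOLM13 (2.34 ± 0.33, adjusted p = 0.000326). It was at 30.2 and 28.5 CPM with Combo, against 3.79 and 2.91 CPM with DMSO in OCIAML3 (3.09 ± 0.31, adjusted p = 6.94e-05). In each of these lines both Combo libraries lay above both vehicle libraries by a wide margin. In THP1 it was at 13 and 16.5 CPM with Combo, against 3.29 and 4.11 CPM with DMSO (1.95 ± 0.25), and in HL60 its log2 change was 4.73 ± 0.61. The HL60 call follows in part from the low-count filter, which IFIT5 passed there through treated libraries. In MV411 it was at 3.88 and 8.77 CPM with Combo, against 0.691 and 2.76 CPM with DMSO (1.83 ± 0.60, adjusted p = 0.0389), a call lost without ATRA replicate 2, Combo replicate 2 or DMSO replicate 1 (adjusted p at most 0.225). TRIM22 and PARP14 were called higher with Combo in 5 lines each. USP18 was called lower in MV411, OCIAML3 and THP1. IFIT1, IFIT2, OASL, MX1, MX2, HERC5, IFI44L, IFI44 and XAF1 were called in opposite directions in different lines, with their falls in HL60 (IFIT1), MOLM13, MV411 and, for XAF1, also THP1. In fits without DMSO replicate 2 the falls of XAF1 in MOLM13 and MV411 and of MX2 in MV411 were called (adjusted p at most 0.0468). Those of OASL, HERC5, IFI44L and IFI44 in MOLM13 and of IFIT2, OASL, MX1, IFI44L and IFI44 in MV411 were not (adjusted p = 0.0536 to 0.654). Their log2 changes were still negative there, from -1.34 to -0.83 in MOLM13 and from -1.72 to -0.60 in MV411, each with 1 vehicle library left.

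USP18 in OCIAML3 was at 1.07 and 0.721 CPM with Combo, against 6.77 and 5.3 CPM with DMSO (-2.79 ± 0.39, adjusted p = 0.000575). In THP1 it was at 0.402 and 0.71 CPM with Combo, against 2.43 and 2.76 CPM with DMSO (-2.30 ± 0.41, adjusted p = 0.000942). In MV411 it was at 1.66 and 1.5 CPM with Combo, against 3.49 and 4.05 CPM with DMSO (-1.27 ± 0.26, adjusted p = 0.00293), while ATRA alone raised it there. USP18 was thus lowered by Combo in these 3 lines, with no overlap between the pairs of libraries. In THP1 the IFI genes were all called higher with Combo, 5 of 5, and IFI6 was at 194 and 213 CPM with Combo, against 17.7 and 18 CPM with DMSO (3.47 ± 0.16, adjusted p = 3.37e-08). IFI27 had under 10 reads in every vehicle library of THP1, so its call follows in part from the low-count filter.

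**Figure D4:**
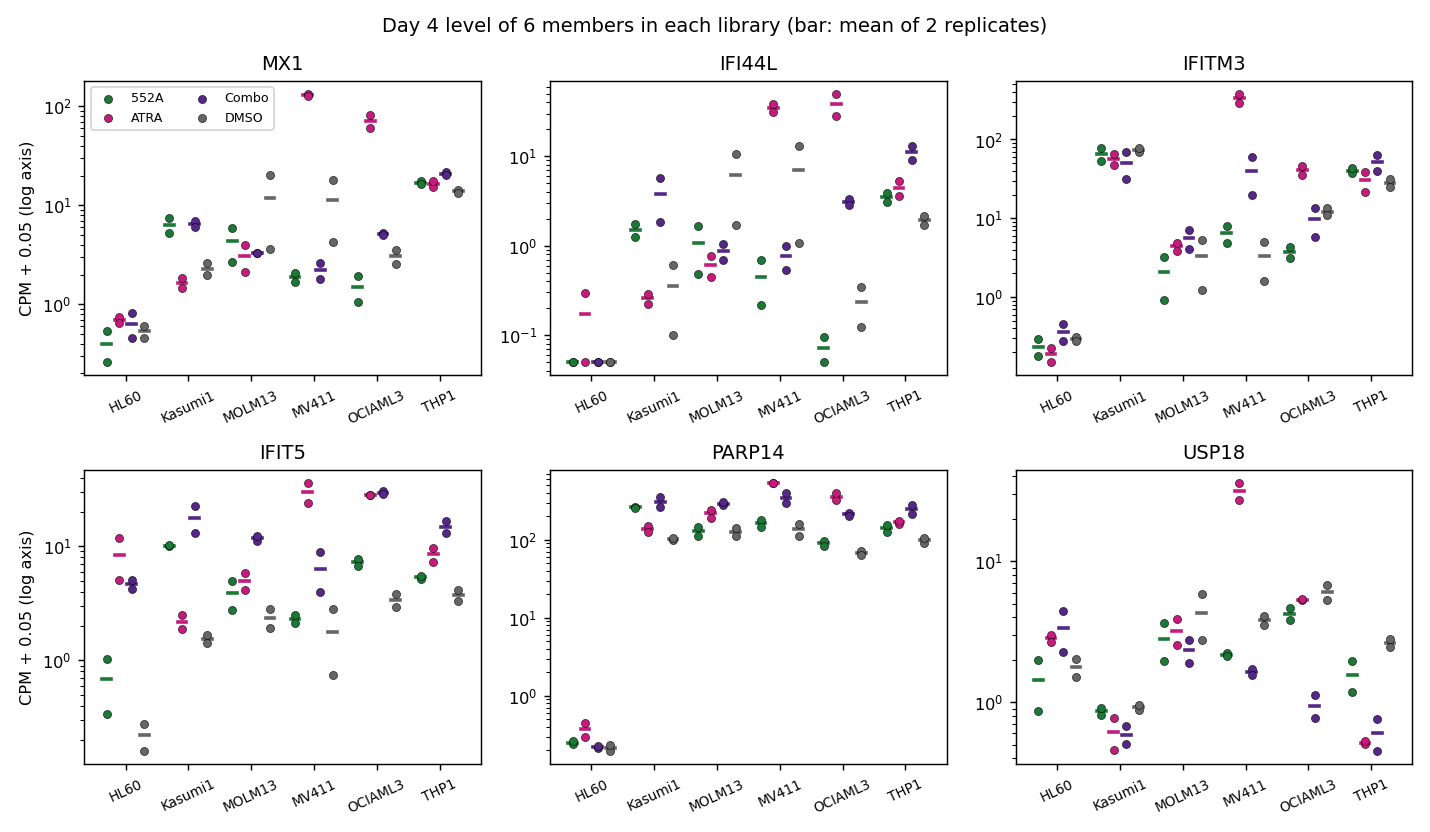
Day 4 level of MX1, IFI44L, IFITM3, IFIT5, PARP14 and USP18 in each library, as CPM + 0.05 on a log axis, by line and treatment; bars are means of 2 replicates. MX1 in MV411 sat at 132 and 127 CPM with ATRA, 2.57 and 1.75 CPM with Combo and 4.23 and 18.1 CPM with DMSO.

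Adding the LSD1 inhibitor to ATRA had opposite effects in different lines. Combo against ATRA at day 4 gave 0 higher and 40 lower of 45 genes in MV411 (median -2.49, against 8.2% of all genes lower), and 0 higher and 17 lower of 44 in OCIAML3 (median -1.30, against 0.681%). The 17 in OCIAML3 include EPSTI1, IFI27, IFI44, IFI44L and IFITM1, which passed the low-count filter there through treated libraries. Their calls follow in part from the filter. In Kasumi1 it gave 20 higher and 0 lower of 42 (median 0.72, against 5.07% of all genes higher), in THP1 11 higher and 0 lower of 44 (median 0.47, against 7.63%) and in MOLM13 3 higher and 0 lower of 45 (median 0.32, against 2.98%). In HL60 0 of 35 were called (median -0.36, against 1.36% of all genes in either direction), with 6 at an unadjusted p under 0.05 and 2 called by DESeq2. The median of all genes lay between -0.03 and 0.04 in these fits. Both ATRA libraries were above both Combo libraries in 42 of the 45 genes in MV411 and in 40 in OCIAML3.

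In MV411 the levels with Combo lay at or below those of vehicle for several genes. MX1 (-2.38 ± 0.69, adjusted p = 0.0223), MX2 (-1.46 ± 0.24, adjusted p = 0.000657) and USP18 were called lower with Combo than with DMSO, and MX2 and USP18 also without DMSO replicate 2, while IFI6 (-0.78 ± 0.43, adjusted p = 0.213) and OAS2 (-0.94 ± 0.38, adjusted p = 0.0899) were not past the test. MX1 was at 2.57 and 1.75 CPM with Combo, against 132 and 127 CPM with ATRA (-5.91 ± 0.78, adjusted p = 0.000296). USP18 was at 1.66 and 1.5 CPM with Combo, against 35.8 and 27.2 CPM with ATRA (-4.33 ± 0.27, adjusted p = 2.91e-06). MX2 was at 11.7 and 8.45 CPM with Combo, against 142 and 128 CPM with ATRA (-3.76 ± 0.26, adjusted p = 3.95e-06). IFI6 was lower in the same way, at 11.8 and 9.96 CPM with Combo, against 288 and 274 CPM with ATRA (-4.71 ± 0.49, adjusted p = 5.1e-05). OAS2 was at 9.02 and 9.39 CPM with Combo, against 147 and 132 CPM with ATRA (-3.94 ± 0.42, adjusted p = 6.13e-05). The IFITM proteins kept part of their rise: IFITM3 was at 59.2 and 19.9 CPM with Combo, against 294 and 373 CPM with ATRA and 5 and 1.55 CPM with DMSO, and IFITM1 was at 670 and 245 CPM with Combo, against 893 and 1173 CPM with ATRA (-1.20 ± 0.46, adjusted p = 0.0876). PARP14 was at 294 and 394 CPM with Combo, against 530 and 534 CPM with ATRA (-0.65 ± 0.19, adjusted p = 0.0328), and its call was lost without either ATRA replicate (adjusted p at most 0.118). The genes not called were BST2, IFITM1, IFITM2, SAMD9 and TRIM22. Of the 40 calls 31 were kept in every fit that left out 1 library, and without DMSO replicate 2, which does not enter the contrast but shares the fit, 41 were lower. The GC slope of MV411 Combo replicate 2 was -0.723, and with offsets for GC content and length 42 genes were called.

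In OCIAML3 the same contrast was less stable. MX1 was at 5.15 and 4.92 CPM with Combo, against 61 and 81.7 CPM with ATRA (-3.85 ± 0.43, adjusted p = 0.000717), a call kept in every fit that left out 1 library. IFI44L was at 3.29 and 2.8 CPM with Combo, against 28.5 and 49.1 CPM with ATRA (-3.69 ± 0.60), a call lost without ATRA replicate 2 or either Combo replicate. It is among the members that passed the low-count filter in OCIAML3 through treated libraries. IFIT5 did not follow these genes, at 30.2 and 28.5 CPM with Combo, against 28.2 and 27.8 CPM with ATRA (0.04 ± 0.29, adjusted p = 0.969). PARP14 was at 224 and 204 CPM with Combo, against 323 and 396 CPM with ATRA (-0.78 ± 0.26, adjusted p = 0.201). Of the 17 calls 3 were kept in every fit that left out 1 library. The count was 10 and 4 without ATRA replicates 1 and 2, 7 and 3 without Combo replicates 1 and 2, and 29 and 30 without 552A replicates 1 and 2 of day 2, which enter the shared estimate of spread, and 33 with offsets for GC content and length.

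In Kasumi1 the genes stood near the 552A level with Combo. DDX58 was at 51.5 and 36.2 CPM with Combo, against 18.2 and 11.9 CPM with ATRA, 30.5 and 32 CPM with 552A and 10.8 and 9.29 CPM with DMSO. RSAD2 was at 39.4 and 28.4 CPM with Combo, against 10.3 and 7.63 CPM with ATRA. Both Combo values were above all 4 values of ATRA and DMSO in each gene. The count of 20 called genes was 10 without ATRA replicate 2, and the GC slopes of the Combo pair were -0.686 and 0.176. In THP1, OAS1 was at 33.1 and 36.8 CPM with Combo, against 11.4 and 10.3 CPM with ATRA (1.70 ± 0.17, adjusted p = 3.78e-05). EPSTI1 was at 14 and 17.5 CPM with Combo, against 5.32 and 5.48 CPM with ATRA (1.55 ± 0.22, adjusted p = 0.000521). IFI6 was at 194 and 213 CPM with Combo, against 67 and 69.9 CPM with ATRA (1.58 ± 0.15, adjusted p = 2.43e-05). The THP1 count of 11 was 7 without ATRA replicate 1 and 17 without either 552A replicate of day 2, and with GC and length offsets 27 were higher and 1 lower. In MOLM13, CXCL10, the chemokine that draws T cells, was at 4.18 and 9.3 CPM with Combo, against 0.524 and 0.627 CPM with ATRA (log2 change 3.54), with IFIT5 and TRIM22 the other calls. The MOLM13 count of 3 was 0 without any one of the 4 libraries of this contrast, and with GC and length offsets 5 were higher and 2 lower.

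**Figure D5:**
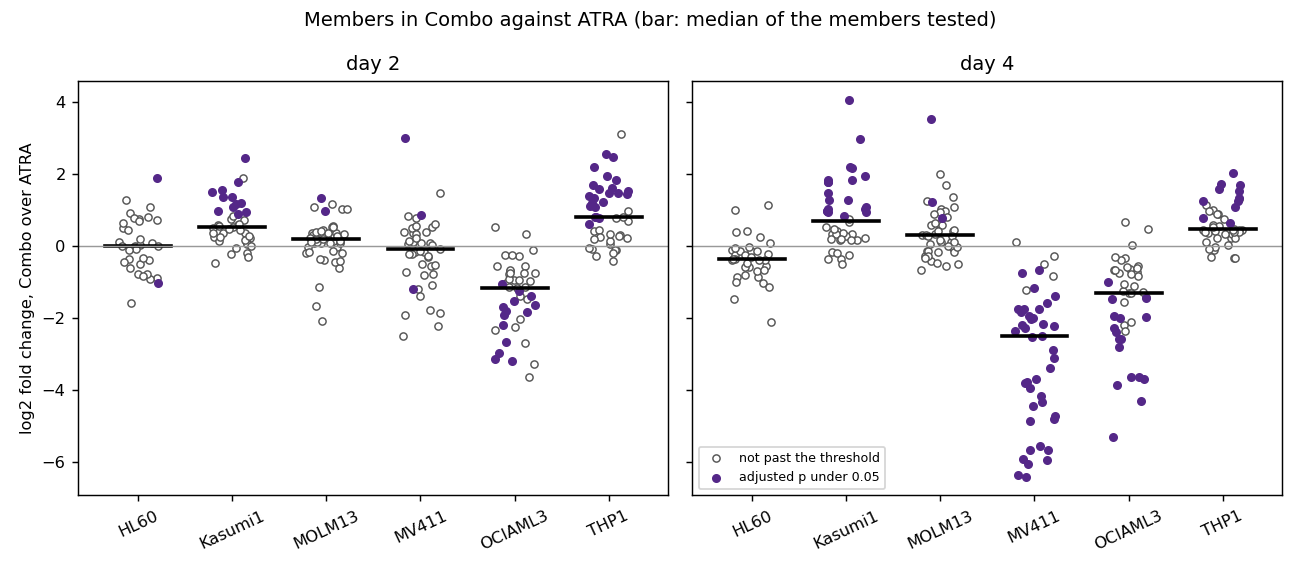
Log2 fold change of each member tested in Combo over ATRA at days 2 and 4, by line; filled points have an adjusted p under 0.05 and bars are medians of the members tested. At day 4 the median was -2.49 in MV411 and -1.30 in OCIAML3, and 0.72 in Kasumi1 and 0.47 in THP1.

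Combo was also compared with the sum of the changes under 552A and under ATRA on the log2 scale. In MV411 it fell short of that sum in 14 genes and exceeded it in 0 (median -2.47, 35 at an unadjusted p under 0.05), where 1.49% of all genes fell short. MX2 differed from the sum by -3.94 ± 0.34 (adjusted p = 0.000423), and USP18 by -3.45 ± 0.36 (adjusted p = 0.000659). MX2, USP18, OAS2, IFI6 and CMPK2 kept their call in every fit that left out 1 library, and the count was 5 without 552A replicate 2, 8 and 5 without ATRA replicates 1 and 2, 7 without Combo replicate 2 and 17 without DMSO replicate 2. In OCIAML3 the genes were IFI6, OAS2 and OASL (3 genes, against 0.0711% of all genes), each lost in 12 of the 16 fits that left out 1 library. In HL60 it was OAS1 (-4.22 ± 0.51, adjusted p = 0.00381, against 0.299%), kept in all 16 such fits, and in THP1 HERC5 (-1.78 ± 0.34, adjusted p = 0.0183, against 1.91%), lost in 6 of them. OAS1 had under 10 reads in every vehicle library of HL60 and passed the low-count filter through treated libraries. Its distance from the sum therefore rests on a vehicle level near the floor, and nothing is read from it. In Kasumi1 and MOLM13 0 were called, with 0 and 8 at an unadjusted p under 0.05, against 0% and 0.125% of all genes.

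The response in OCIAML3 and HL60 was already there at day 2, and in MV411 it grew between the days. ATRA at day 2 gave 35 higher in OCIAML3 (median 1.74, against 8.31% of all genes), 23 higher and 1 lower in HL60 (median 2.05, against 16.5% and 13.9%), 14 higher and 3 lower in THP1 (against 8.88% and 5.82%), 7 higher and 3 lower in MV411 (median 0.79, against 3.19% and 3.51%), 1 higher in MOLM13 (against 1.5%) and 0 in Kasumi1 (1 at an unadjusted p under 0.05, against 0.0444% of all genes). The OCIAML3 count was 21 without ATRA or DMSO replicate 1 and 22 without DMSO replicate 2, the THP1 count of 17 was 9 and 10 without DMSO replicates 1 and 2, and the MV411 count of 10 was 4 and 6 without ATRA replicates 1 and 2 and 2 and 4 without DMSO replicates 1 and 2. With GC and length offsets MV411 had 16 higher and 4 lower at day 2. MX1 in OCIAML3 at day 2 was at 71.3 and 35.9 CPM with ATRA, 7.47 and 5.04 CPM with Combo and 3.17 and 3.11 CPM with DMSO. The day 2 counts of OCIAML3 and HL60 also hold members with under 10 reads in every vehicle library of the line.

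In MV411 the ATRA change at day 4 exceeded that at day 2 in 8 genes and was smaller in 0 (median difference 1.94, against 0.761% of all genes larger). With 1 library left out the count ran from 1, without ATRA replicate 2 of day 2, to 16, and without DMSO replicate 2 of day 4 it was 15 (median 2.85, against 0.371% of all genes). MX2 was called in all 16 such fits, ISG20 and USP18 each in all but 1, and the other 5 genes were lost in 4 to 7. MX2 was at 10.5 and 7.69 CPM with ATRA at day 2, against 19.8 and 16.9 CPM with DMSO, and at 142 and 128 CPM with ATRA at day 4, against 21.9 and 33 CPM with DMSO (difference of the changes 3.32 ± 0.34, adjusted p = 0.000622). Both ATRA libraries of MX2 were thus under both vehicle libraries at day 2 and above both at day 4. ISG20 did the same, at 0.274 and 0.273 CPM with ATRA against 1.27 and 0.689 CPM with DMSO at day 2, and 3.54 and 4.98 CPM with ATRA against 0.691 and 0.795 CPM with DMSO at day 4 (4.32 ± 0.61, adjusted p = 0.00689). USP18 (2.31 ± 0.35, adjusted p = 0.00905), IFITM3 (4.08 ± 0.76, adjusted p = 0.0211), DHX58, OAS2, CMPK2 and XAF1 were the others. IFITM3 was at 25.5 and 18.1 CPM with ATRA at day 2, against 3.2 and 4 CPM with DMSO. The falls of MX2 and ISG20 at day 2 were among the 10 calls with ATRA in MV411. None of these 10 was kept in every fit that left out 1 library, and ISG20 was at a low level.

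Combo at day 2 gave 31 higher and 2 lower in THP1 (median 1.13, against 15.3% and 13.5% of all genes), 22 and 1 in HL60 (against 21.3% and 19.1%), 15 and 2 in MV411 (against 9.65% and 8.72%), 15 and 1 in OCIAML3 (against 8.89% and 4.35%), 13 and 0 in Kasumi1 (against 3.17%) and 6 and 0 in MOLM13 (against 4.66%). OAS1 and IFIT5 were called higher with Combo in all 6 lines at day 2. The calls in HL60 included IFIT5, OAS1, OAS3 and TRIM22, which had under 10 reads in every vehicle library there. The same holds for EPSTI1, IFI44 and IFI44L in OCIAML3 and for IFI27 in THP1. These calls follow in part from the low-count filter, and the day 2 counts were not repeated without such members. The lowest counts called with 1 library left out were 5 in Kasumi1, 3 in MOLM13, 6 in MV411 and 5 in OCIAML3. The LSD1 inhibitor at day 2 gave 13 higher in Kasumi1 (against 3.23% of all genes), 10 in THP1 (against 4.95%), 2 in HL60, DDX60 and OAS1 (against 1.23%), 2 in OCIAML3, HERC5 and IFIT5 (against 1.57%), and 0 in MOLM13 and MV411 (6 and 4 at an unadjusted p under 0.05, against 1.4% and 1.79% of all genes in either direction), with 0 lower in any line. With 1 library left out, Kasumi1 had 5 to 16 called and THP1 6 to 31, where 31 was reached without 552A replicate 1. Combo against ATRA at day 2 already had 0 higher and 14 lower in OCIAML3 (against 0.589%), 22 higher and 0 lower in THP1 (against 6.72%) and 12 higher and 0 lower in Kasumi1 (against 3.04%), with 1 to 22, 7 to 24 and 4 to 14 called when 1 library was left out. The same contrast had 2 higher and 1 lower in MV411 (against 4.36% and 1.64%) and 2 higher in MOLM13 (against 1.75%). In HL60 it had 1 higher and 1 lower (against 2.27% and 2.32%). The OCIAML3 count of 14 was likewise not repeated without the members that passed the low-count filter there through treated libraries. With Combo, the change at day 4 was smaller than at day 2 for OAS1 in HL60 (-3.15 ± 0.64, adjusted p = 0.0182, against 1.9% of all genes), where its day 2 vehicle libraries held 2 and 3 reads and 5 of 16 fits that left out 1 library lost the call. It was also smaller for MX1 in THP1 (-1.58 ± 0.21, adjusted p = 0.0184, against 0.181%), which was at 42.3 and 44.9 CPM with Combo at day 2, against 9.04 and 10 CPM with DMSO, and at 21.8 and 20 CPM with Combo at day 4, against 14.2 and 13.3 CPM with DMSO, a call lost in 12 of the 16 fits.

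Over the 6 lines as replicates, Combo at day 4 raised 8 of the 45 genes, DDX58, BST2, RTP4, IFIT5, DTX3L, PARP14, DDX60L and SAMD9, against 12.7% of all genes called higher, 3 to 7 with 1 line left out and 13 without DMSO replicate 2 of MOLM13 and MV411. That background is not far below the share of the members. The Combo response differed between lines for 38 of the 45 genes (against 33.6% of all genes), and for 36 without those 2 libraries. The 7 that did not pass were EIF2AK2, DHX58, LY6E, IFI27, PARP14, ISG15 and SAMD9.

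The genes upstream of the set were read from separate lists. Of the 21 interferon ligand genes at most 1 was tested in a line. IFNB1 reached at most 0.719 CPM and was not tested in any line. IFNK, which encodes interferon kappa, was at 5.49 and 10.5 CPM with Combo, against 0.366 and 0.681 CPM with DMSO in MV411 at day 4 (3.88 ± 0.44, adjusted p = 3.68e-05), and at 1.6 and 1.62 CPM with ATRA (log2 change 1.60). Of the 9 receptor and kinase genes, ATRA raised 7 of 8 tested in HL60 (against 16.2% of all genes called higher), 7 of 8 in THP1 (8.85%), 4 of 9 in MV411 (11.9%), 3 of 8 in OCIAML3 (8.71%), 3 of 9 in MOLM13 (5%) and 0 of 8 in Kasumi1 (0.0889%). It lowered IFNGR1 and IFNLR1 in MV411 and IFNLR1 in MOLM13.

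Among the transcription factors, STAT2, IRF9 and IRF1 rose with ATRA in HL60, MV411, OCIAML3 and THP1. IRF9, the DNA-binding subunit of ISGF3, was at 28.4 and 25.4 CPM with ATRA, 11.5 and 8.45 CPM with Combo and 4.83 and 6.74 CPM with DMSO in MV411. It was thus high in the ATRA pair of MV411 and lower in the Combo pair. IRF1, a factor induced by interferon gamma and by ATRA in myeloid cells, rose with ATRA in 5 lines, by 2.27 in MOLM13, 2.12 in THP1, 2.10 in OCIAML3, 1.82 in MV411 and 1.75 in HL60, and with Combo in all 6. In Kasumi1 it was at 336 and 465 CPM with Combo, 203 and 239 CPM with ATRA and 144 and 137 CPM with DMSO (Combo 1.48 ± 0.17, adjusted p = 0.000163; ATRA 0.68, adjusted p = 0.458). IRF7, the factor that amplifies type I interferon production, was not called in any line, and its GC content is 66.8%. In these bulk libraries fewer cells of a kind and less RNA per cell cannot be told apart, for these genes and for the 45.

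Genes of the interferon gamma list and further antiviral genes also moved with ATRA, and their counts stand against the same shares of all genes called higher, 16.2% in HL60, 11.9% in MV411, 8.85% in THP1, 8.71% in OCIAML3, 5% in MOLM13 and 0.0889% in Kasumi1. In MOLM13 ATRA raised 6 of the 10 gamma genes tested and lowered 1, and 7 of 20 further antiviral genes rose. GBP4, a guanylate-binding protein, was at 98.8 and 82.4 CPM with ATRA, 167 and 191 CPM with Combo and 0.0565 and 0.973 CPM with DMSO in MOLM13. It was the one gamma gene called with ATRA in Kasumi1 (1.82 ± 0.29, adjusted p = 0.0416). The gamma list had 6 of 10 tested genes higher each in MV411, OCIAML3 and THP1 and 4 of 9 in HL60. The further antiviral list had 13 of 20 higher in HL60, 14 of 21 in MV411, 9 of 21 in OCIAML3, 8 of 23 in THP1 and 0 of 19 in Kasumi1. IFI16, a nuclear DNA sensor, rose with 552A in HL60 by 2.66, Kasumi1 by 0.61, MOLM13 by 1.88 and THP1 by 1.88. In HL60 it was at 46.8 and 58.1 CPM with 552A, against 6.13 and 10.1 CPM with DMSO. Of the 14 sensors and adaptors that act upstream of interferon, ATRA raised 6 of 11 tested in HL60, 6 of 12 in MV411, 6 of 12 in THP1, 3 of 11 in OCIAML3 and 2 of 13 in MOLM13, and TLR4, the lipopolysaccharide receptor, was among them in HL60, MV411, OCIAML3 and THP1. It lowered TMEM173 (STING) in HL60, and TLR7 and TLR8, endosomal receptors of single-stranded RNA, in MV411. SOCS3, an inhibitor of cytokine receptor signalling, was called higher with ATRA in HL60, MV411 and THP1, and SOCS1 in MV411 and OCIAML3.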

How the data were processed

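The deposited table gives raw whole-number read counts for 60552 gene rows in 96 libraries. Per the submitters' processing notes, Trimmomatic 0.36, STAR 2.4.2a and HTSeq 0.6.0 were used with GRCh38. Annotation release and strand setting are not given in the sources used here. Identifiers were matched to GENCODE release 29 for symbols, exon length and GC content. Each line was fitted once, with its 16 libraries in 8 groups (8 residual degrees of freedom), in R 4.3.3 with edgeR 4.0.16, limma 3.58.1, TMM, filterByExpr and the quasi-likelihood test, adjusted over all genes tested. Standard errors are the size of the log2 change over the root of F. Changes over lines used 24 sums of replicate pairs with line as a block, and differences between lines used 48 day-4 libraries. Alternatives were DESeq2 1.42.0, RLE factors, no filter, a replicate block, offsets for GC content and length, and leaving out each library or line. Leaving out libraries for the difference between days, and leaving out DMSO replicate 2 of MOLM13 and MV411 in the tests over lines and the vehicle levels, were chosen after seeing the data. The fits were also run on simulated counts with the same spread for every gene and large changes set only in genes well above the floor. That run did not cover replicates that disagree or genes near the floor.

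The members and gene lists were chosen with earlier results of these data known. Genes named in full were a fixed set of 12 members, per line and treatment the 2 strongest rises and falls, members called in most lines or in opposite directions, the highest and lowest vehicle levels, and the leading genes of the context lists. DDX60, ISG20, MX2, IFITM1, EPSTI1 and OASL were added where a result turned on them, after their values were seen.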

Additional observations from a re-analysis of the deposited data

Results flagged for a closer look

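The response to a treatment at day 4 differed between the 6 lines by an F test of line by treatment for 16 of the 45 genes with 552A, for 45 with ATRA and for 38 with Combo, against 5.69%, 31.4% and 33.6% of all genes tested. The largest contrast between lines lay in ATRA, where MV411 had 41 genes higher and Kasumi1 had 0 called.

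The response also differed between day 4 and day 2, tested as the difference of the changes within a line. In MV411 8 genes (MX2, ISG20, USP18, DHX58, IFITM3, OAS2, CMPK2 and XAF1) had a larger ATRA response at day 4, against 0.761% of all genes. With 1 library left out 1 to 16 genes did, 15 without DMSO replicate 2 of day 4, and MX2 was called in every such fit. In HL60 1 gene, OAS1, had a smaller Combo response at day 4 (-3.15 ± 0.64, adjusted p = 0.0182, against 1.9% of all genes), a call lost in 5 of the 16 fits that left out 1 library. OAS1 had under 10 reads in every vehicle library of that line. In THP1 1 gene, MX1, had a smaller Combo response at day 4 (-1.58 ± 0.21, adjusted p = 0.0184, against 0.181%), a call lost in 12 of 16.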

How the results depend on the processing

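With the replicate block the ATRA counts at day 4 were 41 in MV411, 38 in OCIAML3, 21 in HL60, 15 in THP1, 11 in MOLM13 and 0 in Kasumi1. The block gave 0 called genes for 552A in MV411 and 0 in OCIAML3. Replicate numbers were not taken to pair the libraries, since not every pair of groups had correlated deviations over 0.1: in a line 14 to 21 of the 28 did, 5 to 10 lay under -0.1, and the median correlation was between 0.0682 and 0.433.

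Counts that moved by over 1.5 times are given by setting, as members called at day 4 unless stated. Some counts under another setting or with 1 library left out stand without a share of all genes, here and elsewhere. For these, a change in the members cannot be told from a change in the whole table. Main counts of the totals over 6 lines were 27 for 552A at day 2, 91 for Combo against ATRA and 19 for Combo beyond the sum. DESeq2 gave 3, 4 and 2 for 552A in MOLM13, MV411 and OCIAML3, 37 for Combo beyond the sum, 25 for lines that differ in the 552A response and 24 for ATRA over the lines. GC and length offsets gave for 552A 16 in THP1, 9 in MV411, 9 in OCIAML3, 3 in MOLM13 and 2 in HL60, for ATRA 17 and for Combo 18 in MOLM13, for Combo 26 in MV411, 49 for 552A at day 2, 48 for Combo beyond the sum, 31 for lines that differ in the 552A response and 5 for Combo over the lines. RLE factors gave 0 for 552A in OCIAML3. No filter gave for 552A 11 in MOLM13, 15 in MV411 and 4 in OCIAML3, for ATRA 19 and for Combo 20 in MOLM13, 47 for 552A at day 2, 58 for Combo beyond the sum and 27 for lines that differ in the 552A response. The replicate block with GC and length offsets gave for 552A 16 in THP1, 13 in OCIAML3, 9 in MV411, 5 in MOLM13 and 2 in HL60, for ATRA 1 in Kasumi1, 19 in MOLM13 and 20 in THP1, for Combo 23 in MOLM13 and 27 in MV411, 59 for 552A at day 2, 149 for Combo against ATRA and 59 for Combo beyond the sum. The causes were not tested.

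With 1 library left out, the counts for 552A in HL60, Kasumi1, MOLM13, MV411, OCIAML3 and THP1, in this order, ran from 1 to 1, 11 to 20, 0 to 3, 0 to 7, 0 to 6 and 4 to 7. Those for ATRA ran from 18 to 25, 0 to 0, 0 to 13, 37 to 43, 29 to 41 and 4 to 18 in the same order, and those for Combo from 17 to 25, 16 to 34, 5 to 15, 10 to 19, 11 to 26 and 22 to 33. Totals over the lines ran from 19 to 48 for 552A at day 2, 73 to 92 for ATRA and 97 to 115 for Combo at day 2, 77 to 104 for Combo against ATRA and 10 to 26 for Combo beyond the sum. With 1 line left out, lines differed for 4 to 19 genes with 552A, 38 to 44 with ATRA, 29 to 36 with Combo and 39 to 44 in DMSO, and changes over lines were called for 0 to 0, 0 to 17 and 3 to 7 genes with 552A, ATRA and Combo. Without DMSO replicate 2 of MOLM13 and MV411, changes over lines were called for 25 genes with ATRA and 13 with Combo. The 8 genes whose ATRA response in MV411 was larger at day 4 were 11 with RLE factors, 8 with the replicate block, 23 with DESeq2, 27 with GC and length offsets, 30 with both block and offsets and 36 with no filter. The direction reversed for 1 gene, ISG15 for Combo against ATRA in Kasumi1 without Combo replicate 2 (-2.14, adjusted p = 0.0339, against 0.17 with all libraries, not called, and from -2.14 to 1.07 over the libraries left out). Of the calls with all libraries, 85 of 120 for ATRA, 73 of 122 for Combo, 16 of 27 for 552A and 50 of 91 for Combo against ATRA were kept in every fit that left out 1 library. With 2 replicates per group, low-count genes in HL60 limit what can be called there.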
